A study of Mus musculus with 9 samples.

Results

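Superoxide dismutases, catalase and glutathione peroxidases are the enzymes that remove superoxide, hydrogen peroxide and lipid hydroperoxides from cells. Their 9 genes, chosen by symbol from the 38685 genes and loci of the testis expression table, were Sod1, Sod2, Sod3, Cat, Gpx1, Gpx3, Gpx4, Gpx6 and Gpx8. Each symbol matched 1 row, and all 9 had enough counts to be tested.

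Superoxide dismutases turn superoxide into hydrogen peroxide and oxygen, and the mammalian forms work in different places, SOD1 mainly in the cytosol, SOD2 in the mitochondrial matrix and SOD3 outside the cell. Catalase, held in peroxisomes, splits hydrogen peroxide into water and oxygen. Glutathione peroxidases reduce peroxides with glutathione as the electron donor, and GPX4 of this family is also a structural protein of the mitochondrial capsule of sperm, where it is abundant after its synthesis in spermatids.

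Testis RNA was sequenced from C57BL/6 males of 3 genotypes that differed in protamine 2, a protein that packs sperm DNA: wildtype (Prm2+/+), Prm2-heterozygous (Prm2+/-) and Prm2-deficient (Prm2-/-), with 3 samples of each. The Prm2-deficient mice came from lines made by CRISPR/Cas9 editing in oocytes, and the study described Prm2+/- males as fertile and Prm2-/- males as infertile. No treatment was given, and the age of the males and the line behind each sample are not given in the sources used here. RNA was taken from the whole testis without its tunica albuginea, the outer capsule, so a lower value can come from fewer cells of a type or from less RNA per cell, and these cannot be told apart. The question addressed here is whether the transcripts of these enzymes differed between the genotypes in the testis.

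Values are normalized counts from a library type that reads the 3′ ends of polyadenylated RNA, and the counts recovered from them summed to between 3629929 and 4490411 per library. Between 19028 and 20526 genes had at least 1 count, the lowest number in replicate 3 of Prm2+/+. That library stood apart: it was the single lowest of the 9 for 24.8% of the tested genes, against 7.55% to 11.5% for each of the others, so results that rest on it are also given without it. Genotypes were compared with limma on log2(normalized count + 1), and calls needed a log2 fold change (LFC) of more than 0.5 in size together with an adjusted p (Benjamini-Hochberg) under 0.05. Prm2 itself was not lower in the libraries labelled Prm2-/- (LFC 0.20 against Prm2+/+, adjusted p = 0.746 in limma), so its transcript does not check the labels. The study describes the samples as biological replicates, the labels do not tie them to animals, and p-values measure the spread between these samples. The marker lists of spermatogonia, spermatocytes, spermatids, Sertoli, Leydig and peritubular myoid cells each had counts in every library, as a testis label requires. Single markers, such as Gata4 and Des, were at 0 in some libraries, and 5 of the 7 epididymis markers were at 0 in all 9 libraries. Because each comparison shares a group with another, their values are given side by side and not as separate evidence.

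None of the 9 genes (0) was called in any of the 3 comparisons. Over all 14893 genes tested, 0.181% were called between Prm2-/- and Prm2+/+, 0.0806% between Prm2+/- and Prm2+/+ and 0.175% between Prm2-/- and Prm2+/-. At an unadjusted p under 0.05, limma picked 2 of the 9 between Prm2-/- and Prm2+/+, namely Gpx6 and Sod3, where 7.33% of all tested genes passed. It picked 0 between Prm2+/- and Prm2+/+ (background 4.24%) and 1, Gpx6, between Prm2-/- and Prm2+/- (background 5.44%). Without replicate 3 of Prm2+/+, limma picked only Gpx6 between Prm2-/- and Prm2+/+. The share of all tested genes was not computed for that fit. With the same threshold edgeR picked 2, 0 and 2 of the 9 in these comparisons and DESeq2 on all 9 samples 1, 0 and 1. The shares of all genes were computed for limma only, so these counts have no background to be read against. The median LFC of the 9 genes was 0.02, -0.03 and 0.05 in the same order, against 0.02, 0.01 and -0.01 over all genes tested.

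The libraries of Prm2-/- and Prm2+/+ did not overlap for 2 of the 9 genes, with Gpx6 higher and Sod3 lower in every Prm2-/- library, and 14.0% of all tested genes were separated in this way, 6.92% with the Prm2-/- libraries higher and 7.10% with them lower. Between Prm2+/- and Prm2+/+ only Cat was separated (1 of 9, higher in Prm2+/-, background 9.44% in either direction and 4.88% higher), and between Prm2-/- and Prm2+/- Gpx1, Gpx6 and Gpx8 were, all higher in Prm2-/- (3 of 9, background 14.7% in either direction and 7.47% higher).

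**Figure D1:**
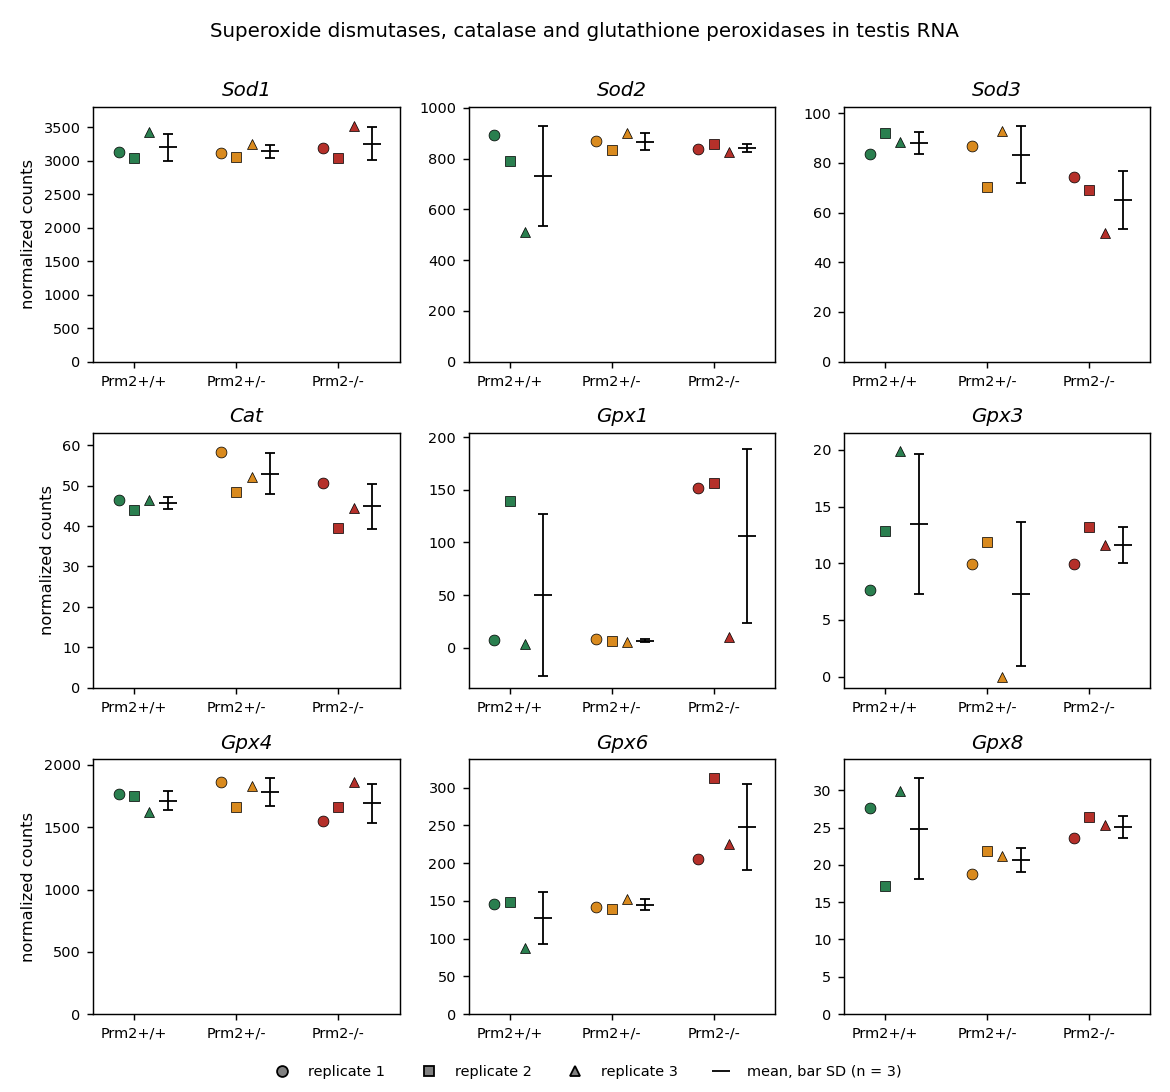
Normalized counts of the 9 genes in the 9 testis libraries, with 1 panel per gene, its own linear vertical axis, genotype on the horizontal axis and symbol shape for the replicate number, beside the mean with its SD (n = 3). Sod1 and Gpx4 lay level across genotypes, all Prm2-/- libraries of Gpx6 (206 to 313) lay above the other 6, and Gpx1 stood high in 3 libraries and low in 6.

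Sod1, the copper and zinc enzyme of the cytosol, lies on chromosome 16 of GRCm38 (16:90220754-90226329, plus strand), and its end overlaps Scaf4 on the opposite strand. Its normalized counts were 3131, 3039 and 3432 in Prm2+/+, 3116, 3052 and 3252 in Prm2+/- and 3197, 3045 and 3524 in Prm2-/-. The 3 groups overlapped, and replicate 2 was the lowest and replicate 3 the highest library within each of them. The LFC between Prm2-/- and Prm2+/+ had a 95% interval from -0.15 to 0.20, and the intervals of the other 2 comparisons also stayed inside 0.5 in either direction. Scaf4 itself (16:90225680-90284503) had between 50.4 and 75.1 normalized counts. The 3′ ends of the 2 genes overlap, and whether the counting used strand is not given in the sources used here.

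Sod2, the manganese enzyme of mitochondria, spans 17:13006846-13040063 on the plus strand. It had 893, 792 and 510 normalized counts in Prm2+/+, 869, 833 and 900 in Prm2+/- and 838, 857 and 826 in Prm2-/-. A single library stood apart, replicate 3 of Prm2+/+ with 510, while the other 8 lay between 792 and 900. The LFC of Prm2-/- against Prm2+/+ was 0.24 (standard error (SE) 0.19, 95% interval -0.19 to 0.67, adjusted p = 0.756 in limma), and it was -0.0015 without that library. Against Prm2+/- the LFC was -0.05 with an interval from -0.47 to 0.38.

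Sod3, the secreted enzyme that binds to the extracellular matrix, lies at 5:52363791-52371418 on the plus strand. Its normalized counts were 83.6, 92.2 and 88.4 in Prm2+/+, 87.0, 70.3 and 92.8 in Prm2+/- and 74.3, 69.0 and 51.7 in Prm2-/-. All 3 Prm2-/- libraries lay below all 3 Prm2+/+ libraries, and replicate 2 of Prm2+/- lay among the Prm2-/- values. The LFC between Prm2-/- and Prm2+/+ was -0.45 (SE 0.17, 95% interval -0.85 to -0.05), with an unadjusted p of 0.0320 and an adjusted p = 0.641 in limma. It was -0.36 against Prm2+/- and -0.09 between Prm2+/- and Prm2+/+, with limma's adjusted p at 0.947 and 0.922. With each library left out in turn the first of these values ranged from -0.55 to -0.29. Without replicate 3 of Prm2+/+ that value was -0.44, and Sod3 no longer had an unadjusted p under 0.05 in limma.

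Markers of peritubular myoid cells, the contractile cells around the seminiferous tubules, had their lowest sum in replicate 1 of Prm2-/-. Among the Prm2-/- libraries Sod3 was highest in that one. The 5 markers summed to between 292.8 and 358.2 normalized counts in Prm2+/+, 279.5 and 308.5 in Prm2+/- and 240.0 and 298.3 in Prm2-/-. Of the 4 that were tested, Cnn1 (LFC -0.76, unadjusted p = 0.00962, adjusted p = 0.522 in limma) and Acta2 (LFC -0.27, unadjusted p = 0.0212, adjusted p = 0.604 in limma) had all Prm2-/- libraries below all Prm2+/+ libraries, a separation that 7.10% of all tested genes showed. Myh11 (LFC -0.28, adjusted p = 0.743 in limma) overlapped, and Des was at 33.3, 0 and 0 in Prm2+/+ and between 13.6 and 31.6 in the other 6 libraries (LFC 2.71, adjusted p = 0.701 in limma), the opposite direction. None of the 4 (0) was called. Their part in the Sod3 values was not tested.

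Cat, which encodes catalase, lies at 2:103453849-103485160 on the minus strand. It had 46.6, 43.9 and 46.4 normalized counts in Prm2+/+, 58.3, 48.4 and 52.1 in Prm2+/- and 50.7, 39.6 and 44.4 in Prm2-/-. The Prm2+/- libraries were all above the Prm2+/+ libraries, and the Prm2-/- libraries spread across both groups. The LFC of Prm2+/- against Prm2+/+ was 0.21 (95% interval -0.12 to 0.54, adjusted p = 0.842 in limma), and that of Prm2-/- against Prm2+/+ was -0.03 (-0.36 to 0.30). The 9 libraries varied by 11.4% (coefficient of variation), where counting error alone would give 14.3% at a mean of 48.9 counts, so these counts do not resolve a difference of the size seen.

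Some glutathione peroxidases carry selenocysteine at the active site, read from a TGA codon within the coding sequence, while others have an ordinary cysteine there. The stretch around this codon is shown for the 5 members measured, since it separates Gpx1, Gpx3 and Gpx4 from Gpx6 and Gpx8. Capitals mark the active-site codon in the coding strand of GENCODE M21 transcripts (GRCm38), written 5′ to 3′. For Gpx6 and Gpx8 the codon was found by aligning the translated coding sequence with that of Gpx1.
Gpx1: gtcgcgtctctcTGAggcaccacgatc
Gpx3: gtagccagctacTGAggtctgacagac
Gpx4: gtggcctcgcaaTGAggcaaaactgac
Gpx6: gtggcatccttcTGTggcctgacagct
Gpx8: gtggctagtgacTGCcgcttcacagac

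The windows lie at chr9:108339439-108339465 for Gpx1, chr11:54907244-54907270 for Gpx3 and chr10:80054725-80054751 for Gpx4, all on the plus strand. Those of Gpx6 at chr13:21313765-21313791 and of Gpx8 at chr13:113045649-113045675 are on the plus and the minus strand. The TGA was codon 47 of 201 in Gpx1, codon 73 of 226 in Gpx3 and codon 73 of 197 in the Gpx4 transcript used, and each of the 3 coding sequences held exactly 1 in-frame TGA before its stop codon. Gpx6 has the cysteine codon TGT at codon 73 of 221, and Gpx8 has TGC at codon 79 of 209. Mouse GPX6 and GPX8 are known as members without selenium.

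Among the selenium-dependent members, Gpx4, the phospholipid hydroperoxidase of the sperm midpiece, lies at 10:80047166-80056439 on the plus strand, and 1 pseudogene in the annotation carries its name. Its normalized counts were 1766, 1754 and 1623 in Prm2+/+, 1864, 1659 and 1829 in Prm2+/- and 1551, 1659 and 1865 in Prm2-/-. The groups overlapped, and the lowest and the highest of the 9 libraries were both Prm2-/-. The LFC was -0.02 between Prm2-/- and Prm2+/+ (SE 0.09, 95% interval -0.23 to 0.18, adjusted p = 0.965 in limma), 0.06 between Prm2+/- and Prm2+/+ (-0.15 to 0.26) and -0.08 between Prm2-/- and Prm2+/- (-0.28 to 0.13).

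Gpx1, the widespread cytosolic enzyme that reduces hydrogen peroxide, lies at 9:108338903-108340343 on the plus strand. Its normalized counts were 7.60, 139 and 3.31 in Prm2+/+, 7.91, 6.39 and 5.30 in Prm2+/- and 151, 156 and 10.6 in Prm2-/-. The libraries fell into a high set of 3 (139 to 156) and a low set of 6 (3.31 to 10.6), and the high set held 1 library of Prm2+/+ and 2 of Prm2-/-. The high libraries rested on 130 to 167 recovered counts each and the low ones on 3 to 10. The widest step in the ordered log2 values of Gpx1 was 3.60, and 722 of the tested genes (4.85%) had a step at least that wide.

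This split ran across the genotypes, and the intervals were wide. The LFC of Gpx1 was 1.91 between Prm2-/- and Prm2+/+ (SE 1.42, 95% interval -1.36 to 5.18, adjusted p = 0.754 in limma), and leaving out 1 library at a time gave 0.91 to 3.42. Between Prm2-/- and Prm2+/-, whose libraries did not overlap, it was 3.13 (-0.14 to 6.39, adjusted p = 0.918 in limma). In that comparison DESeq2 on the 6 samples alone called Gpx1 (LFC 4.03, adjusted p = 0.00268), while edgeR gave an LFC of 4.01 with an adjusted p = 0.855, and DESeq2 on all 9 samples gave no adjusted p.

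The protein-coding genes on either side of Gpx1 are Rhoa, a small GTPase of the cytoskeleton, and Usp4, a deubiquitinating enzyme, both on the same strand. Rhoa had between 224 and 317 normalized counts in all 9 libraries. Usp4 had 402 and 437 in replicates 2 and 3 of Prm2+/- and between 18.2 and 34.8 in the other 7. The high libraries of Usp4 were thus not those of Gpx1, and whether reads were assigned differently between neighbouring transcripts in different libraries was not tested.

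**Figure D2:**
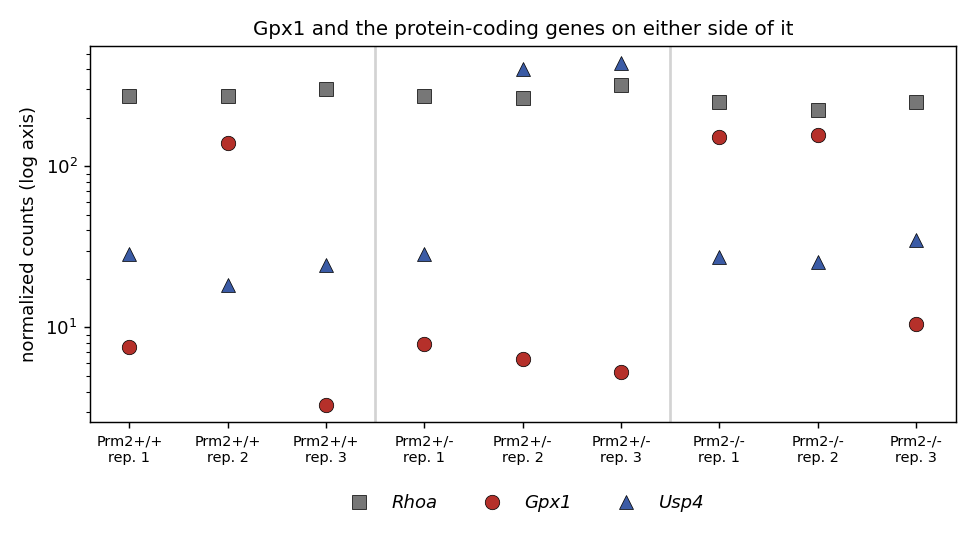
Normalized counts on a log axis of Gpx1 and of its protein-coding neighbours Rhoa and Usp4 in each of the 9 libraries, which are ordered by genotype and replicate number. Gpx1 was near 150 in 3 libraries and at most 10.6 in the other 6, Rhoa was level, and Usp4 was high in replicates 2 and 3 of Prm2+/-.

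Gpx3, the secreted plasma enzyme, lies at 11:54902453-54910377 on the plus strand. It had 7.60, 12.9 and 19.9 normalized counts in Prm2+/+, 9.89, 11.9 and 0 in Prm2+/- and 9.96, 13.2 and 11.6 in Prm2-/-. The groups overlapped, and the 0 in replicate 3 of Prm2+/- allows up to 3 counts, or 2.65 normalized counts. The LFC of Prm2-/- against Prm2+/+ was -0.11 with an interval from -2.24 to 2.02, so a 4-fold difference in either direction lay within the interval.

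Gpx6, a member without selenium known mainly from the olfactory epithelium, lies at 13:21312125-21319624 on the plus strand. It had 146, 149 and 87.3 normalized counts in Prm2+/+, 142, 139 and 153 in Prm2+/- and 206, 313 and 226 in Prm2-/-. Every Prm2-/- library lay above the other 6, whose highest value was 153, while Prm2+/+ and Prm2+/- overlapped. The mean was 248 ± 56.8 in Prm2-/- (SD, n = 3) against 128 ± 34.9 in Prm2+/+ and 145 ± 7.29 in Prm2+/-.

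The LFC of Gpx6 was 0.97 between Prm2-/- and Prm2+/+ (SE 0.24, 95% interval 0.42 to 1.52), with an unadjusted p of 0.00348 and an adjusted p = 0.392 in limma, which missed the threshold. Against Prm2+/-, limma gave an LFC of 0.75 (SE 0.24, unadjusted p = 0.0133, adjusted p = 0.854). That of Prm2+/- against Prm2+/+ was 0.22 with an interval from -0.33 to 0.77. Replicate 3 of Prm2+/+, with 87.3 the lowest library, bore on the first value, which was 0.72 without it and ranged from 0.72 to 1.10 as each library was left out. The adjusted p between Prm2-/- and Prm2+/+ ranged from 0.0503 to 0.735 over the alternatives, the lowest with DESeq2 on all 9 samples, and no alternative called Gpx6 in any of the 3 comparisons.

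Among the marker lists, the 8 Sertoli cell markers summed to between 2549 and 4056 normalized counts in Prm2+/+. The sums were between 2570 and 2694 in Prm2+/- and between 2971 and 3687 in Prm2-/-. The highest sum was in the Prm2+/+ library in which Gpx6 was lowest. Of these sums Clu alone gave 1649 to 2534. Amhr2 was at 692 in replicate 3 of Prm2+/+, at 539 and 544 in replicates 1 and 2 of Prm2-/- and at 12.8 or less elsewhere. Between Prm2-/- and Prm2+/+ only Gata4 of the 8 had separated libraries (higher in Prm2-/-, background 6.92%). Spermatid marker sums overlapped between the groups. Odf2, an outer dense fibre protein of the sperm tail, was at 3198, 3040 and 3862 in Prm2+/+, 3684, 3193 and 2767 in Prm2+/- and 4869, 4816 and 4660 in Prm2-/-. Its LFC between Prm2-/- and Prm2+/+ was 0.51 (unadjusted p = 0.00300, adjusted p = 0.392 in limma). Its Prm2-/- libraries lay above both other groups, as did those of Gpx6. Of all tested genes 6.92% were separated higher against Prm2+/+ and 7.47% against Prm2+/-, and the share for both was not computed. Of the 8 elongating spermatid markers, Odf2 among them, 4 had an LFC above 0 against Prm2+/+ and 4 below it, including Odf1 (-0.14) and Tnp2 (-0.16). Of 55 tested markers of all cell types 0 were called, and Tnp1 (LFC -0.12, adjusted p = 0.660 in limma) and Vwf (LFC 2.97, adjusted p = 0.645 in limma, at 0 in replicates 1 and 3 of Prm2+/+) were the other 2 with an unadjusted p under 0.05 between Prm2-/- and Prm2+/+ besides Odf2, Acta2 and Cnn1. The part of these in the Gpx6 values was not tested.

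Gpx8, a membrane-bound peroxidase of the endoplasmic reticulum, lies at 13:113042753-113046410 on the minus strand inside Cdc20b, which is on the opposite strand. It had 27.6, 17.1 and 29.8 normalized counts in Prm2+/+, 18.8, 21.9 and 21.2 in Prm2+/- and 23.5, 26.4 and 25.3 in Prm2-/-. The Prm2-/- libraries were above those of Prm2+/- and within the range of Prm2+/+. The LFC was 0.27 in the first of these comparisons (-0.26 to 0.80, adjusted p = 0.986 in limma) and 0.05 in the second (-0.48 to 0.58). Gpx8 varied by 17.7% over the 9 libraries, and counting error alone would give 20.5%. Cdc20b had between 32.0 and 55.8 normalized counts, more than Gpx8 in each library. The annotated 3′ end of Cdc20b, on the plus strand, lies at 13:113091195, outside Gpx8, so the 3′ ends of the 2 genes differ in position. Whether the counting used strand is not given in the sources used here.

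**Figure D3:**
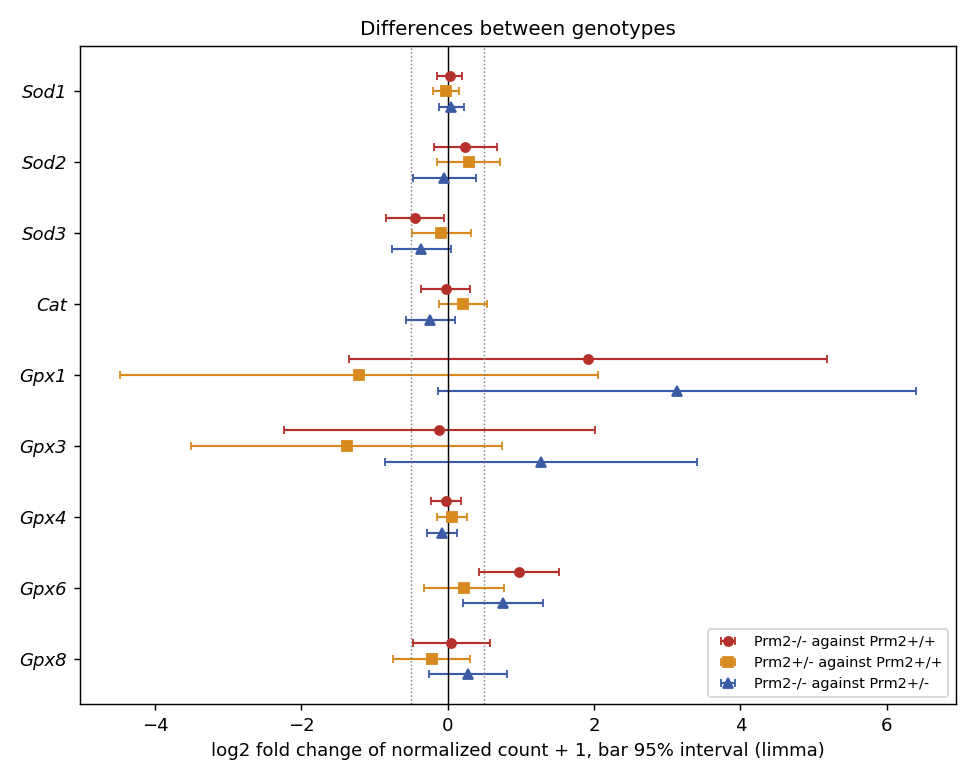
Log2 fold change of the normalized count + 1 for the 9 genes in the 3 comparisons, each with its 95% interval from limma, and dotted lines at 0.5 in either direction. The intervals of Sod1 and Gpx4 lay inside these lines in all 3 comparisons, those of Gpx1 and Gpx3 spanned several log2 units, and those of Gpx6 lay above 0 in both comparisons with Prm2-/-.

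The width of the intervals differed widely between the genes and did not follow the counts alone. The half-width of the 95% interval between Prm2-/- and Prm2+/+ was 0.18 log2 units for Sod1 (3253 counts per library on average) and 0.20 for Gpx4 (1761 counts), and it was 0.33 for Cat (48.9 counts), 0.40 for Sod3 (80.3), 0.43 for Sod2 (834), 0.53 for Gpx8 (23.9) and 0.55 for Gpx6 (177). It reached 2.13 for Gpx3, with a mean of 10.7 counts, and 3.27 for Gpx1, with 54.8. Gpx1 varied by 131% over the 9 libraries where counting error alone would give 13.5%, Gpx3 by 49.0% against 30.6% and Gpx6 by 37.9% against 7.52%. For 3 of the 9 genes, Sod1, Cat and Gpx4, the whole interval of this comparison stayed inside 0.5 in either direction. The same held for Sod1, Sod3 and Gpx4 between Prm2+/- and Prm2+/+ and for Sod1, Sod2 and Gpx4 between Prm2-/- and Prm2+/-. The 9 genes lie on 8 chromosomes, with Gpx6 and Gpx8 on the same one.

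The 3 glutathione peroxidase genes outside the set, Gpx2, Gpx5 and Gpx7, had too few counts to be tested. Gpx5, an epididymal enzyme secreted onto sperm, was at 62.7 normalized counts in replicate 1 of Prm2+/+ and between 0 and 2.97 in the other 8 libraries. In that library 1 of the 7 epididymis markers, Adam7, was at 9.50 and the other 6 were at 0, among them Lcn5, Lcn8 and Crisp1. Adam7 was at 0 in all other libraries. Gpx5 lies 19393 bases from Gpx6 on the opposite strand, and Gpx6 was at 146 there, close to replicate 2 of the same genotype. Gpx7, of the endoplasmic reticulum, was at 0 in the 3 Prm2+/+ libraries, at 3.95, 0 and 6.19 in Prm2+/- and at 4.53, 6.09 and 3.17 in Prm2-/-. Gpx2 stayed at or below 1.90 in every library.

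The enzymes depend on metal delivery, on selenocysteine insertion, on glutathione and its reduction, and on import into peroxisomes, and they share their substrates with peroxiredoxins. Of 60 genes listed for these functions and for the NRF2 pathway and the producers of superoxide and hydrogen peroxide, the other 3 glutathione peroxidases included, 43 were tested. None (0) was called in any of the 3 comparisons. Between Prm2-/- and Prm2+/+, 26 had an LFC above 0 and 17 below it, with a median of 0.12 against 0.02 over all tested genes, and 4 had an unadjusted p under 0.05 (9.30%, where 7.33% of all tested genes passed). These values rested on replicate 3 of Prm2+/+, the lowest library for 13 of the 43 genes and for 24.8% of all tested genes. Without it 17 of the 43 had an LFC above 0 and 26 below it, and the median was -0.07 against -0.01 over all tested genes. In that fit 2 had an unadjusted p under 0.05, and the share of all tested genes was not computed. The count at that threshold was 0 of 43 between Prm2+/- and Prm2+/+ (background 4.24%) and 4 of 43 between Prm2-/- and Prm2+/- (background 5.44%).

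Metal supply gave 2 of the 4, in opposite directions. Ccs, the chaperone that loads copper into SOD1, had 206, 207 and 260 normalized counts in Prm2+/+, 216, 183 and 223 in Prm2+/- and 174, 175 and 175 in Prm2-/-. Its Prm2-/- libraries lay below all others, with an LFC of -0.35 against Prm2+/+ (SE 0.13, unadjusted p = 0.0255, adjusted p = 0.617 in limma). Of all tested genes 7.10% were separated lower against Prm2+/+ and 14.7% in either direction against Prm2+/-, and the share below both groups was not computed. Atox1, the copper chaperone that serves the secretory pathway, had 182, 191 and 185 in Prm2+/+, 188, 172 and 221 in Prm2+/- and 227, 216 and 227 in Prm2-/-, an LFC of 0.27 against Prm2+/+ (unadjusted p = 0.0448, adjusted p = 0.671 in limma). Without replicate 3 of Prm2+/+, and likewise without any 1 of the 3 Prm2-/- replicates, neither had an unadjusted p under 0.05 in limma. Without replicate 1 or 2 of Prm2+/+ or replicate 1 of Prm2+/-, 1 gene of the list did. The list of 5 had a median LFC of 0.19, which was -0.07 without replicate 3 of Prm2+/+, and its other members were the copper importer Slc31a1 and the metal importers Slc39a8 and Slc39a14.

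Prdx2, a cytosolic peroxiredoxin that reduces hydrogen peroxide, had 192, 183 and 196 normalized counts in Prm2+/+, 194, 136 and 167 in Prm2+/- and 118, 150 and 101 in Prm2-/-. The Prm2-/- libraries lay below those of Prm2+/+, a separation that 7.10% of all tested genes showed, and overlapped those of Prm2+/-. The LFC against Prm2+/+ was -0.64 (SE 0.18, unadjusted p = 0.00705, adjusted p = 0.494 in limma). Prdx5, a peroxiredoxin of mitochondria, peroxisomes and cytosol, ranged from 401 to 520 over the 9 libraries with overlapping groups. Its gene overlaps Trmt112 on the opposite strand, which ranged from 11.5 to 203. The annotated 3′ ends, at 19:6906697 for Prdx5 and 19:6911049 for Trmt112, lie outside the overlap. The median LFC of the 11 tested genes of the peroxiredoxin and thioredoxin system was -0.17.

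Slc7a11, the cystine importer that feeds glutathione synthesis, had 35.2, 47.2 and 33.1 normalized counts in Prm2+/+, 31.6, 33.8 and 27.4 in Prm2+/- and 18.1, 25.4 and 32.7 in Prm2-/-. The lowest Prm2+/+ and the highest Prm2-/- library were next to each other, and the LFC was -0.60 (unadjusted p = 0.0402, adjusted p = 0.658 in limma). The 6 tested genes of glutathione synthesis and reduction had a median LFC of 0.21. The medians were -0.06 for 8 genes of selenoprotein synthesis and selenium supply, 0.41 for 6 of peroxisomal protein import, 0.05 for 4 of the NRF2 pathway and 0.22 for 3 producers of superoxide and hydrogen peroxide, and no gene of these 4 lists had an unadjusted p under 0.05 between Prm2-/- and Prm2+/+. Without replicate 3 of Prm2+/+ the median of peroxisomal protein import was -0.15, with 1 gene above 0 and 5 below in place of 5 and 1, and that of the NRF2 pathway was -0.08. Pex13, a peroxisomal membrane import protein, was at 37.6 in that library and between 287 and 482 in the other 8. Between Prm2-/- and Prm2+/- the 4 genes at that threshold were Scly (LFC -0.58), Prdx2 (-0.43), Prdx4 (-0.24) and Txnrd1 (1.52), with adjusted p from 0.870 to 0.916 in limma. Txnrd1, thioredoxin reductase of the cytosol, was at 36.1, 128 and 34.3 in Prm2+/+, 63.3, 35.6 and 28.3 in Prm2+/- and 113, 111 and 127 in Prm2-/-, so that its highest library was replicate 2 of Prm2+/+.

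**Figure D4:**
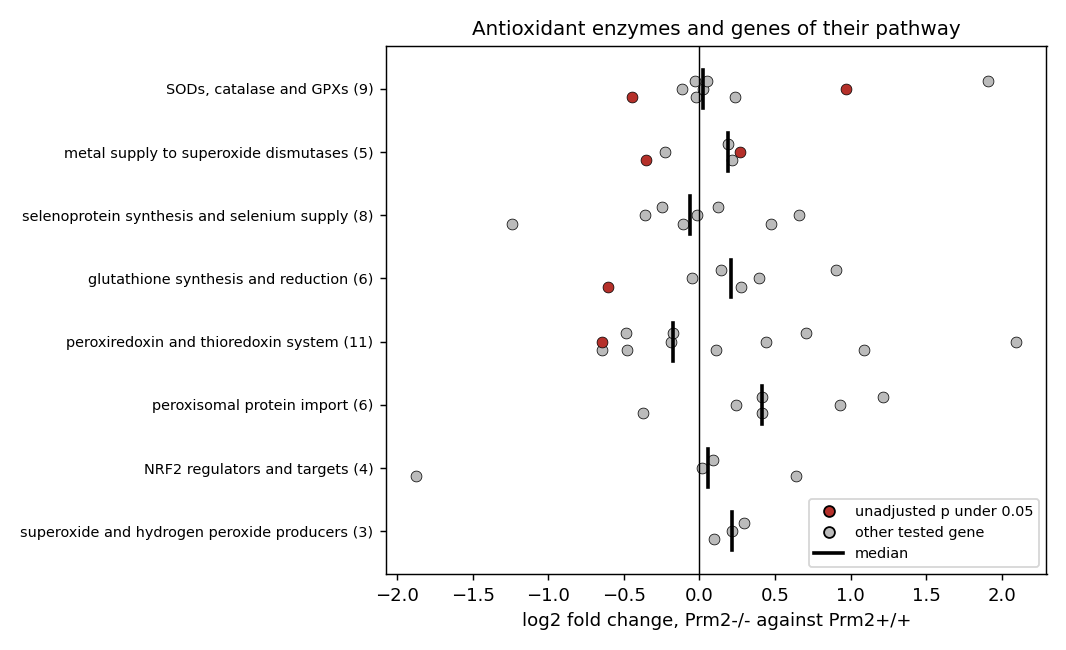
Log2 fold change between Prm2-/- and Prm2+/+ of each tested gene in the set of 9 and in the pathway lists, 1 row per list with its number of tested genes, a bar at the median, and red points for an unadjusted p under 0.05 in limma. No gene was called, the median of peroxisomal protein import (0.41) was -0.15 without replicate 3 of Prm2+/+, and the red points are Gpx6, Atox1, Ccs, Sod3, Slc7a11 and Prdx2.

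The genes whose levels went most closely with Sod1 over the 9 libraries, among 8554 tested genes with a mean of at least 50 normalized counts, were 2700046G09Rik (Pearson r = 0.956), Rsph9 (0.956) and Got1l1 (0.952). For Gpx4 they were Srf (r = 0.913), 1700092E19Rik (0.896) and 4930415F15Rik (0.887). The points share libraries and size factors, and these coefficients describe the 9 libraries only. Among the 36 pairs of the 9 antioxidant genes, r ranged from -0.61 for Gpx6 with Sod3 to 0.65 for Gpx6 with Gpx1 (both over 9 libraries).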

How the data were processed

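Testis RNA of 9 samples was sequenced by the authors as 3′-end libraries (QuantSeq). According to the study and the submitters' processing notes, reads were trimmed with Trim Galore 0.4.5 and mapped to GRCm38 with HISAT2 2.1, and StringTie 1.3.3 gave the gene-level counts. The authors deposited a signal per gene, namely normalized counts, scaled with 1 size factor per library. All values (100.0%, tolerance 0.001) were whole multiples of 1 step per library, and the recovered counts served the filter and the count tests. For replicate 1 of Prm2+/- the step lies close to 1, which makes this a weaker sign there. StringTie derives counts from coverage, and they may be scaled differently from the reads. The limit set by a count of 0 and the counting errors given leave out other sources of error. There were 0 columns without a sample.

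Genes were kept by filterByExpr (14893 of 38685) and tested with limma 3.58.1 (lmFit and eBayes with trend) on log2(normalized count + 1), with a pseudocount of 1 and genotype as the only term in all 9 samples. The pseudocount shrinks differences between low values, while genes that split between libraries can show larger fold changes on this scale than in a count model (Gpx1 between Prm2-/- and Prm2+/+: LFC 1.91 in limma, 1.09 in edgeR). Alternatives were edgeR 4.0.16 (quasi-likelihood) and DESeq2 1.42.0 on the recovered counts (R 4.3.3), TMM scaling, pseudocounts of 0.5 and 5, other filters, the 6 compared samples alone, a replicate block and leaving out each sample, which for the pathway lists was added after seeing the data. The scripts were tested on simulated data with the same spread assumed for every gene. There limma called 39.6% of the 2-fold and 90.4% of the 4-fold changes, so the lack of a call does not by itself exclude a 2-fold difference. The spread differed between the 9 genes, so these shares do not hold for each of them, and their own intervals are given above. Positions come from GENCODE M21, to which 38520 rows were matched.

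The genes and lists were chosen with earlier results of these data known. Named are the 9 genes, Prm2, listed and marker genes with an unadjusted p under 0.05 between Prm2-/- and Prm2+/+, Prdx5, Ccs, and the 3 genes most like Sod1 and Gpx4 by Pearson's r. Neighbouring or overlapping genes, Gpx2, Gpx5, Gpx7, Adam7, the other epididymis markers, Myh11, Des, Clu, Amhr2, Gata4, Odf1, Tnp2, Pex13, Scly, Prdx4 and Txnrd1 were named after their values were seen.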

Additional observations from a re-analysis of the deposited data

How the results depend on the processing

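The number of the 9 antioxidant genes called stayed at 0 in all 3 comparisons under every alternative run, with 1 exception: between Prm2-/- and Prm2+/-, DESeq2 on only the 6 samples compared called 1 gene, Gpx1, and the cause was not tested. With each sample left out in turn, several small LFCs changed sign: between Prm2-/- and Prm2+/+, Sod1 ranged from -0.0348 to 0.0749, Sod2 from -0.0015 to 0.40, Cat from -0.12 to 0.0549, Gpx3 from -0.44 to 0.20, Gpx4 from -0.0946 to 0.0381 and Gpx8 from -0.19 to 0.20. Between Prm2+/- and Prm2+/+, Sod1 ranged from -0.0626 to 0.0251, Sod3 from -0.17 to 0.0297, Gpx1 from -2.22 to 0.29 and Gpx6 from -0.0301 to 0.35, and between Prm2-/- and Prm2+/- Sod1 ranged from -0.0086 to 0.0966. Gpx1 between Prm2+/- and Prm2+/+ was 0.29 without replicate 2 of Prm2+/+. Among the other named genes, Odf2 was called between Prm2-/- and Prm2+/+ by DESeq2 on 6 samples (LFC 0.51, adjusted p = 0.0406) and Vwf by limma without replicate 2 of Prm2+/+ (LFC 4.55, adjusted p = 0.00349). With each sample left out in turn, chosen after seeing the data, 0 pathway genes were called between Prm2-/- and Prm2+/+, and the list medians ranged from -0.0738 to 0.17 over all 43 genes, from -0.0738 to 0.25 for metal supply, from -0.11 to 0.0453 for selenoprotein synthesis, from 0.051 to 0.26 for glutathione, from -0.25 to -0.10 for peroxiredoxins and thioredoxins, from -0.15 to 0.72 for peroxisomal import, from -0.0753 to 0.14 for NRF2 and from 0.0603 to 0.25 for the producers. Beside replicate 3 of Prm2+/+, which turned 4 of these medians, leaving out replicate 2 of Prm2+/+ turned those of metal supply and selenoprotein synthesis, and replicate 3 of Prm2-/- those of selenoprotein synthesis and NRF2. Deviations from the group means correlated weakly between genotypes, between -0.02 and 0.05 for the same replicate number and between -0.05 and 0.05 for other numbers. Of the 9 libraries, 6 correlated best with their own number. These values do not settle whether the replicate numbers pair the samples. With the replicate block 0 of the 9 genes were called, and over all genes 14 were called higher and 1 lower between Prm2-/- and Prm2+/+, against 23 and 4 without it. For the same comparison DESeq2 called 102 higher and 36 lower (128 and 38 on 6 samples), limma on 6 samples 47 and 6, and a minimum of 10 counts in every sample left 8 and 1. Between Prm2+/- and Prm2+/+ limma called 9 genes higher and 3 lower, against 3 and 3 with the block, 33 and 33 with DESeq2 and 1 and 0 with that minimum. Between Prm2-/- and Prm2+/- it called 22 and 4, against 12 and 2 with the block, 89 and 24 with DESeq2, 45 and 7 on 6 samples and 10 and 1 with that minimum. Without a filter 31 and 8, 13 and 8, and 29 and 9 genes were called in these comparisons, in the order given. That minimum removed Gpx1 and Gpx3 from the test. Counting error alone, taken from the mean recovered count, is as large as the spread between libraries for Cat and Gpx8. The effect of depth on their differences was not tested.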
